A study of Mus musculus with 6 samples.

Results

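*Lor*, *Flg*, *Flg2*, *Hrnr*, *Rptn*, *Tchh*, *Tchhl1* and *Crnn* encode loricrin and the S100-fused type proteins of the epidermal differentiation complex. The complex is a cluster of genes on mouse chromosome 3 that epidermal cells switch on as they leave the basal layer. These 8 genes were taken by name from a table of 55367 gene names, and all 8 had enough counts to be tested. Loricrin is the main protein of the cornified envelope, the cross-linked protein shell that replaces the plasma membrane of a dying keratinocyte. The S100-fused proteins start with an S100-type calcium-binding domain, followed in several of them by long runs of repeats. Several of them bundle or coat keratin filaments or are joined to the envelope by transglutaminases. Filaggrin is cut from its precursor into monomers that are later broken down to water-holding amino acids, while trichohyalin is best known from the inner root sheath of the hair follicle.

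The data are RNA sequencing counts of primary mouse keratinocytes, non-immortalized epidermal cells from the skin of pups cultured in low-calcium medium. All cells carried the genotype Ppp1r13lflox/flox;Cre+ERT on a mixed background of C57BL/6 and 129/Sv. The tamoxifen-inducible Cre stood at the Gt(ROSA)26Sor locus, which is active in nearly all cell types. Cells of 3 batches were divided into a culture given tamoxifen in the medium change at 24 h (iASPP KO) and a culture without it (iASPP WT), which made 6 libraries. The dose reads 1 mM in the labels and 1 μM in the methods. The iASPP-WT cultures received no drug, so the effects of tamoxifen and of the deletion cannot be told apart. No label says that the batches came from separate animals, and p-values measure only the spread between these cultures, which may be technical. The question was whether loss of iASPP, an inhibitor of p53 and AP1 activity, changed the RNA of these genes.

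The libraries held 20202517 to 25157117 counts, and 3 counts in a library correspond to a level of 0.119 to 0.148 CPM (counts scaled to a library of 1000000), a floor that covers counting error only. *Ppp1r13l*, the gene of iASPP, had 320, 395 and 139 counts in iASPP KO of batches 1, 2 and 3 and 697, 1100 and 472 in iASPP WT, although the loxP sites enclose only exon 8 and reads on the other exons still count. Batch 3 stood apart from the others on the first principal component, which held 62.7% of the variance. Basal keratinocyte markers such as *Krt5* and *Krt14* summed to 25310 to 31440 CPM in the 6 libraries. Markers of fibroblasts summed to 64.3 to 87.9 CPM in batches 1 and 2, and to 494.5 CPM in iASPP KO and 734.2 CPM in iASPP WT of batch 3. The part of these cells in the results of batch 3 was not tested.

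*Flg2* and *Tchhl1* moved most, and in opposite directions. *Tchhl1* rose 3.63-fold in iASPP KO, *Flg2* fell 4.48-fold and *Flg* fell 1.85-fold. Thus 1 of the 8 genes was higher, beside 2.17% of all 14916 tested genes, and 2 were lower, beside 1.95%. Without batch 3, 2 were higher (*Tchhl1* and *Lor*) and 2 lower (*Flg2* and *Flg*), beside 5.20% and 4.34% of all 15261 genes tested then. The other 5 genes did not pass the threshold of an adjusted p under 0.05 in edgeR's quasi-likelihood test. The median log2 fold change of the 8 genes was 0.05, against 0.01 for all tested genes. *Flg2*, *Flg*, *Tchhl1* and *Crnn* kept one direction in all 3 batches, and *Lor*, *Hrnr*, *Rptn* and *Tchh* did not. Of all tested genes 19.5% were higher and 19.5% lower in every batch.

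The 7 S100-fused genes lie side by side within 327.2 kb of chromosome 3 (GRCm38), from *Crnn* at 93144787 to the end of *Tchhl1* at 93471980. Their order is *Crnn*, *Flg2*, *Flg*, *Hrnr*, *Rptn*, *Tchh* and *Tchhl1*, all on the plus strand, with 19.7 to 60.1 kb between neighbours. *Lor* is outside this run, at 92080271 to 92083142 on the minus strand. The genes that fell, *Flg2* and *Flg*, are neighbours 52.1 kb apart. They are flanked by *Crnn* on one side, 47.5 kb from *Flg2*, and by *Hrnr* on the other, 26.1 kb from *Flg*.

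The bases before the start sites are shown because 6 of the 8 genes share a short motif there. RefSeq promoter windows (GRCm38.p6, 250 bases before to 50 after the start) matched all 8 genes. The motif TGANTCA, read by AP1 factors, occurred in 6 of the 8 windows and in 7.81% of all 32851 promoter windows. It reads the same on both strands. Capitals mark it in the stretches of 87 bases below, which run in the direction of the gene at chr3:93197164-93197250, chr3:93273403-93273489, chr3:93468627-93468713, chr3:93144653-93144739, chr3:93393563-93393649 (all plus strand) and chr3:92083144-92083230 (minus strand).
Flg2: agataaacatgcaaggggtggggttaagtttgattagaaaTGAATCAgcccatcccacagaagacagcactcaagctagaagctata
Flg: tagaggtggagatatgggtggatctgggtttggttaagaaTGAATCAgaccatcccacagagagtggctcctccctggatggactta
Tchhl1: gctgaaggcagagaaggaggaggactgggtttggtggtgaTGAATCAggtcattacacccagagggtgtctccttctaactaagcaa
Crnn: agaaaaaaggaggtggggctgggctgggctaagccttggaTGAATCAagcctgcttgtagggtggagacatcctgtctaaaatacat
Rptn: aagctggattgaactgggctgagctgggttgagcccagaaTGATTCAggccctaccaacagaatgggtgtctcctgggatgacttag
Lor: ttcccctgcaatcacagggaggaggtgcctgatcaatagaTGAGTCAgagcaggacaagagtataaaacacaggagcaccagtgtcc

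*Flg2*, *Flg*, *Tchhl1* and *Crnn* had the same form, TGAATCA, beginning 69, 103, 87 and 96 bases before the start. *Rptn* had TGATTCA at 96 bases, which is TGAATCA read on the other strand. *Lor* had a different form, TGAGTCA, at 48 bases. The motif was thus present both in the genes that fell and in the one that rose, and the windows of *Tchh* and *Hrnr* held none. A match describes letters and not a bound site. The S100-fused genes are neighbours of the same type, so their windows need not be independent of each other. The share was not taken for the other families of the complex. The grainyhead-like motif AACNNGTT was found in *Rptn* alone of the 8 windows, 197 bases before the start, and in 4.2% of all windows. The AP-2 motif GCCNNNGGC was in none of the 8 and in 16.6% of all windows. TATAAA, searched after the windows had been read, stood 27 to 53 bases before the start of *Lor*, *Flg*, *Hrnr*, *Rptn* and *Crnn*, and in 13.6% of all windows. The motifs were searched on both strands, and none of the named sites overlapped another.

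The repeats that give several of these proteins their character also limit how they are counted. The reads were 42 bases long, and those that fit several places were not counted. Of the 42-base windows along the annotated exons, 38.0% of *Flg*, 32.6% of *Flg2* and 30.9% of *Hrnr* occurred once among all annotated transcripts. The share was 88.0% in *Tchh*, 89.0% in *Rptn* and 99.8% in *Crnn*, and every window of *Lor* and *Tchhl1* occurred once. Only exact matches were sought, and bases outside the annotated transcripts were not searched. The most repeated window of *Flg2* stands 58 times in its exons and that of *Hrnr* 16 times. They are printed, first copy at chr3:93203946-93203987 and chr3:93323713-93323754 (plus strand, coding exons), to show what a read cannot place.
Flg2: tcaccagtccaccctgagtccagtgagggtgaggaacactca
Hrnr: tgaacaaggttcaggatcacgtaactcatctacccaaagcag

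*Flg* encodes profilaggrin, the precursor of filaggrin. It had 1443, 1579 and 313 counts in iASPP KO of batches 1, 2 and 3, and 2056, 2412 and 955 in iASPP WT. This was 64.3, 70.9 and 13.3 CPM against 96.3, 98.9 and 42.5 CPM. The iASPP-WT culture was higher in every batch, but the groups overlapped, since both cultures of batch 3 were low. On the log2 scale the change was −0.89 (SE 0.21, edgeR quasi-likelihood test, Benjamini-Hochberg adjusted p = 0.0428), with −0.58, −0.48 and −1.67 within the batches. The fall in batch 3 was thus the steepest. Without that batch the estimate was −0.53 (edgeR adjusted p = 0.00191). The adjusted p was 0.0658 with edgeR's robust dispersion.

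*Flg2* encodes filaggrin-2, a relative of filaggrin that is also cut and broken down late in cornification. It had 47, 137 and 56 counts in iASPP KO and 271, 362 and 346 in iASPP WT. This was 2.09, 6.15 and 2.38 CPM against 12.7, 14.9 and 15.4 CPM. All iASPP-KO cultures were below all iASPP-WT cultures, though how many of all tested genes separate in this way was not counted. The iASPP-WT levels of *Flg2* were close to each other, including that of batch 3. Its log2 fold change was −2.16 (SE 0.33, edgeR quasi-likelihood adjusted p = 0.00711), with −2.55, −1.26 and −2.65 within batches. It was −1.89 without batch 3, −1.95 without batch 1 and −2.64 without batch 2, and passed the edgeR threshold each time. Within a library, 30.7, 11.5 and 5.59 counts of *Flg* were found for 1 of *Flg2* in iASPP KO, and 7.59, 6.66 and 2.76 in iASPP WT. The ratio was higher in iASPP KO than in the iASPP-WT culture of the same batch in each case, and the values of the conditions overlapped.

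*Hrnr* encodes hornerin, the remaining long repeat protein of the filaggrin type. Its counts were 247, 191 and 81 in iASPP KO and 194, 171 and 191 in iASPP WT, or 11.0, 8.58 and 3.44 CPM against 9.09, 7.01 and 8.51 CPM. The iASPP-KO culture of batch 3 was low and the other 5 cultures were alike. For *Hrnr* the log2 fold change was −0.22 (SE 0.34, edgeR quasi-likelihood adjusted p = 0.822), with 0.27, 0.29 and −1.28 within batches. Without batch 3 it was 0.28, the opposite sign, with an edgeR adjusted p of 0.713.

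*Rptn* encodes repetin, an envelope precursor with glutamine-rich repeats. Its counts were 613, 843 and 231 in iASPP KO and 388, 838 and 660 in iASPP WT, or 27.3, 37.8 and 9.81 CPM against 18.2, 34.4 and 29.4 CPM. As with *Hrnr*, the iASPP-KO culture of batch 3 was the lowest and the groups overlapped. The estimate was −0.26 on the log2 scale (SE 0.34, edgeR quasi-likelihood adjusted p = 0.786), with 0.58, 0.14 and −1.57 within batches, and it turned to 0.36 without batch 3 (edgeR adjusted p = 0.264). *Rptn* shares 45 exon bases with *Gm37857* on the same strand, a gene with at most 13 counts in a library.

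**Figure D1:**
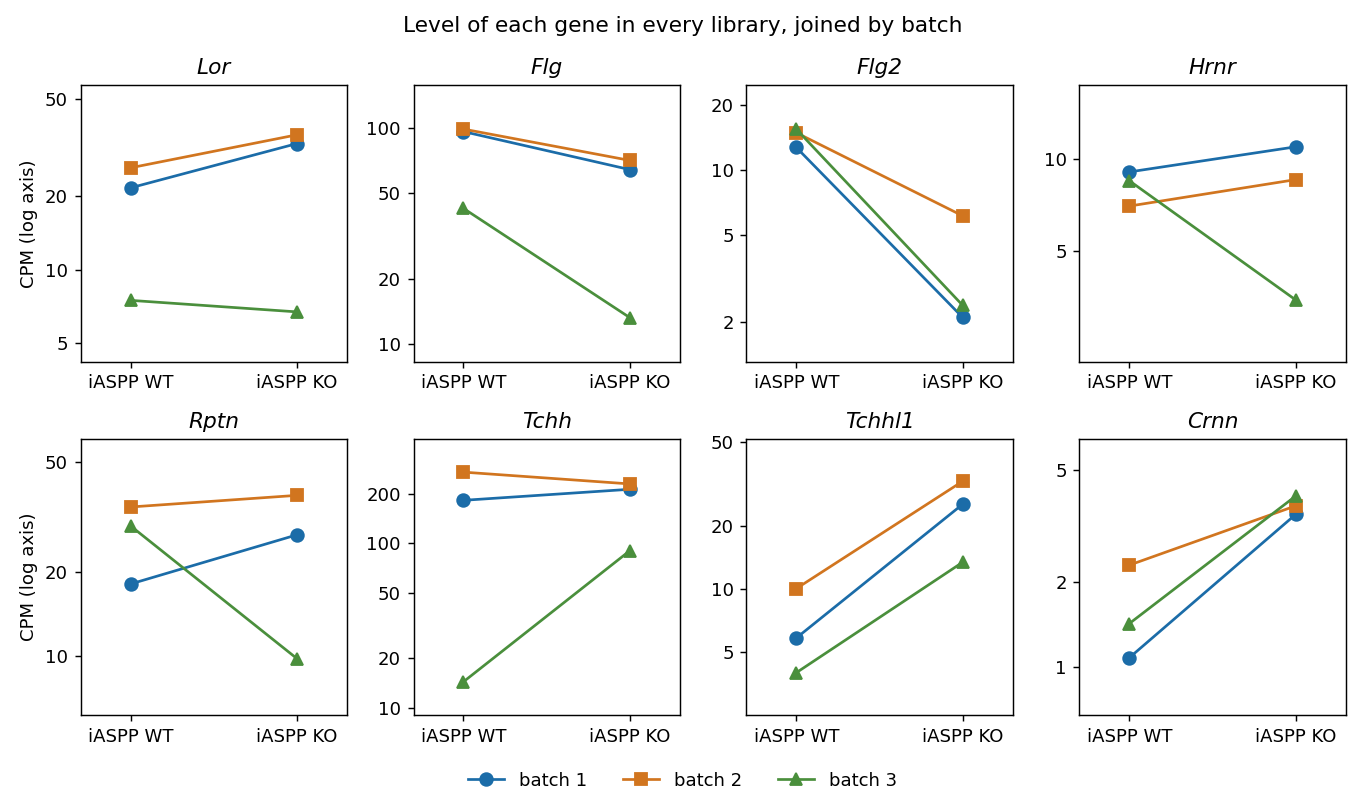
Level of each of the 8 genes in CPM (log axis, its range set for each gene) in the iASPP-WT and iASPP-KO culture of every batch, 1 line per batch and 1 point per library. The lines of *Flg2* and *Flg* all fall, those of *Tchhl1* and *Crnn* all rise, and in *Hrnr*, *Rptn* and *Tchh* the line of batch 3 departs from the others.

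*Tchhl1* encodes trichohyalin-like 1, an S100-fused protein. Its counts were 569, 727 and 315 in iASPP KO and 124, 244 and 89 in iASPP WT, or 25.3, 32.6 and 13.4 CPM against 5.81, 10.01 and 3.96 CPM. Every iASPP-KO culture was above every iASPP-WT culture, a separation that was not counted over all tested genes. Batch 3 was nevertheless the lowest in both conditions. The log2 fold change was 1.86 (SE 0.20, edgeR quasi-likelihood adjusted p = 0.00155), and it was even across batches at 2.11, 1.70 and 1.73. *Tchhl1* and *Flg2* passed the threshold in all 9 alternatives that kept the batch term. No read-length window of *Tchhl1* recurs among the annotated transcripts.

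*Tchh*, which lies 19.7 kb before *Tchhl1*, encodes trichohyalin. It had 4773, 5105 and 2118 counts in iASPP KO and 3888, 6590 and 323 in iASPP WT, or 213, 229 and 90.0 CPM against 182, 270 and 14.4 CPM. The iASPP-WT culture of batch 3 was far below the other 5, and elsewhere the conditions overlapped. The log2 fold change was 0.78 (SE 0.43, edgeR quasi-likelihood adjusted p = 0.407), with 0.22, −0.24 and 2.64 within batches, and −0.0086 without batch 3 (edgeR adjusted p = 0.989). The estimate thus came from 1 pair of cultures. Without a filter on low counts the adjusted p of *Tchh* was 1.33e-06 by edgeR, and it was 0.138 to 0.989 over the other alternatives with the batch term and 0.993 without that term. *Tchh* took 52.5% to 62.9% of the counts of the 8 genes in 5 libraries and 11.7% in iASPP WT of batch 3. For 1 count of *Tchhl1* there were 8.39, 7.02 and 6.72 of *Tchh* in iASPP KO and 31.4, 27.0 and 3.63 in iASPP WT. In batches 1 and 2 the ratio was lower in iASPP KO, and in batch 3 it was higher.

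*Crnn* encodes cornulin, an S100-fused protein of squamous epithelia. Its counts were low, with 78, 83 and 95 in iASPP KO and 23, 56 and 32 in iASPP WT, or 3.47, 3.73 and 4.04 CPM against 1.08, 2.30 and 1.43 CPM. Every iASPP-KO culture lay above every iASPP-WT culture. As for *Flg2* and *Tchhl1*, how many of all tested genes separate like this was not counted. The log2 fold change of *Crnn* was 1.28 (SE 0.48, edgeR quasi-likelihood adjusted p = 0.203), with 1.61, 0.68 and 1.45 within batches. Its unadjusted edgeR p was under 0.05, and it did not pass after adjustment in any alternative (adjusted p 0.118 to 0.973). Batch 3 was not the lowest in either condition, and its iASPP-KO culture had the highest level of all.

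*Lor* had 736, 793 and 158 counts in iASPP KO and 461, 636 and 168 in iASPP WT, or 32.8, 35.6 and 6.71 CPM against 21.6, 26.1 and 7.48 CPM. Its level followed the batch, with both cultures of batch 3 below the others. Over all batches the log2 fold change was 0.32 (SE 0.19, edgeR quasi-likelihood adjusted p = 0.475), with 0.60, 0.45 and −0.15 within batches. Without batch 3 it was 0.52 with an edgeR adjusted p of 0.0477.

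**Figure D2:**
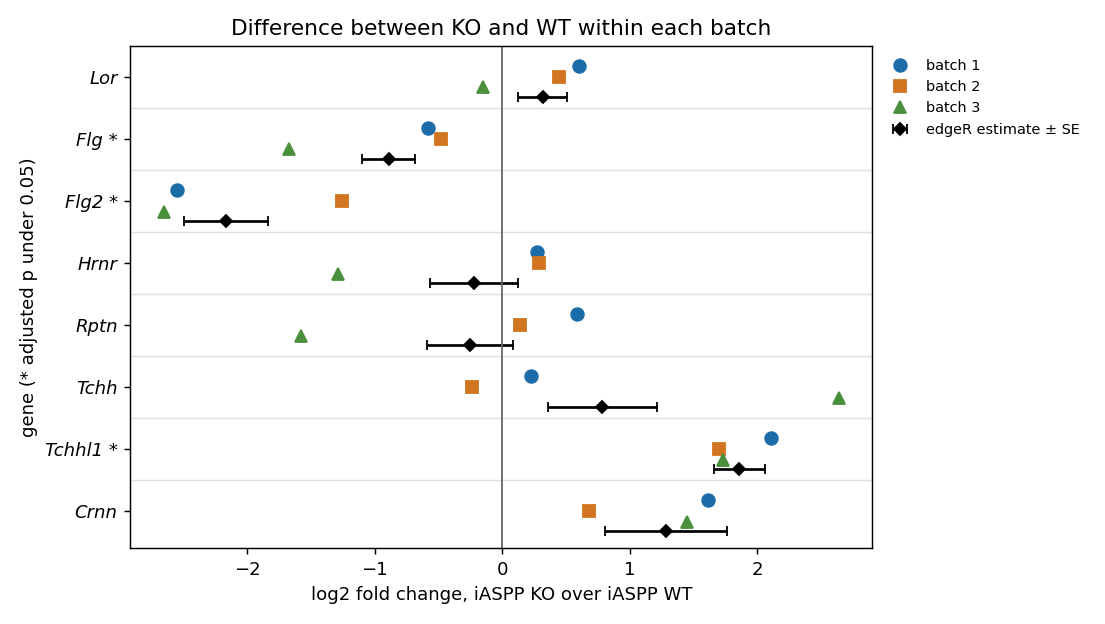
Log2 fold change of iASPP KO over iASPP WT for the 8 genes (horizontal axis), as the within-batch difference of log2 CPM (coloured symbols) and the edgeR estimate over all batches with its standard error (black diamonds). Asterisks mark *Flg*, *Flg2* and *Tchhl1*, whose adjusted p was under 0.05, and the symbols of batch 3 stand apart in *Hrnr*, *Rptn* and *Tchh*.

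Levels were compared between genes per kilobase of exon. In iASPP KO the mean was 30.4 ± 13.1 CPM per kb for *Tchh* (SD, n = 3), 14.1 ± 8.95 for *Lor*, 11.5 ± 4.71 for *Tchhl1* and 6.03 ± 3.42 for *Rptn*. *Flg* followed with 2.63 ± 1.67, *Crnn* with 2.01 ± 0.15, *Hrnr* with 0.686 ± 0.345 and *Flg2* with 0.170 ± 0.109. The ranges of neighbours in this order overlapped in 5 of 7 pairs, and *Crnn* and *Hrnr* as well as *Hrnr* and *Flg2* did not overlap. In iASPP WT the order was *Tchh* (26.7 ± 22.3), *Lor* (10.3 ± 5.46), *Rptn* (6.59 ± 2.001), *Flg* (4.21 ± 1.69), *Tchhl1* (3.19 ± 1.499), *Crnn* (0.858 ± 0.337), *Hrnr* (0.733 ± 0.096) and *Flg2* (0.688 ± 0.069). There 6 of 7 neighbouring pairs overlapped, all but *Tchhl1* and *Crnn*. *Tchhl1* thus had rank 3 in iASPP KO and rank 5 in iASPP WT.

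Counted per kilobase of windows that occur once, the long repeat genes had higher values, though *Flg2* stayed at rank 8 in iASPP KO. *Flg* was at 6.93 ± 4.41 in iASPP KO and 11.1 ± 4.46 in iASPP WT, rank 2 in iASPP WT, where its range overlapped those of *Lor* and *Tchh*. *Flg2* was at 0.519 ± 0.332 and 2.10 ± 0.210, and *Hrnr* at 2.22 ± 1.12 and 2.37 ± 0.310. The ratio between conditions of a gene is not touched by this change of length.

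**Figure D3:**
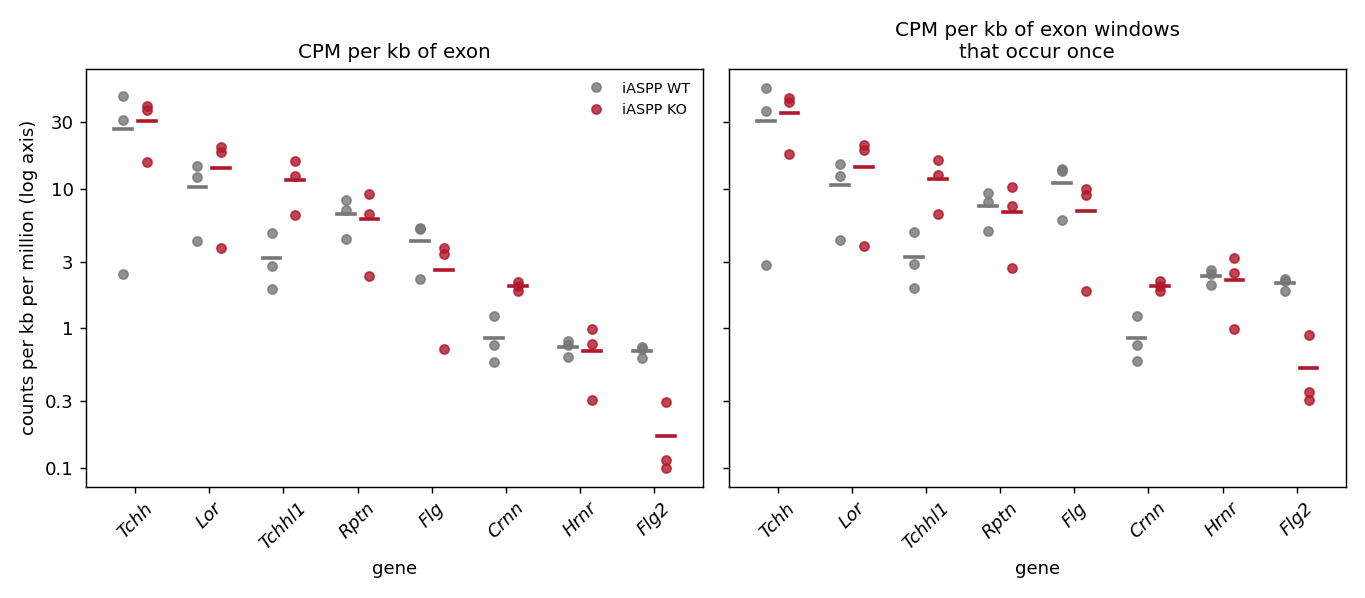
Level of the 8 genes in every library (points) and mean of each condition (bars), in CPM per kb of exon (left) and per kb of 42-base exon windows that occur once (right), on log axes. *Tchh* has the highest mean on both scales, though not the highest value in iASPP WT of batch 3, and *Flg*, *Hrnr* and *Flg2* are higher on the right than on the left.

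The 8 genes were a small share of the RNA, 0.0137% to 0.045% of all counts. Together they had 2764 to 11309 counts per library, and the cultures of batch 3 had the fewest in both conditions. Over the 6 libraries the log2 CPM of *Tchhl1* and *Crnn* had a Pearson r of 0.86, that of *Lor* and *Tchh* 0.81, and that of *Flg* and *Hrnr* 0.81. *Flg2* ran against *Crnn* (−0.79) and *Tchhl1* (−0.70) and had an r of 0.55 with *Flg*. These values describe 6 libraries that share 3 batches and a drug. Fewer cells of a type and less RNA per cell cannot be told apart in such bulk samples.

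Of all other tested genes, those most like *Lor* over the 6 libraries were *Grhl3*, a grainyhead-like factor of epidermal barrier formation (r = 0.9989), *Kif13b* and *Tubb2a*. *Plekha7* came first for *Flg* (0.9951), *Tango6* for *Flg2* (0.9898), *Gm7694* for *Hrnr* (0.991) and *Sertad1* for *Rptn* (0.9895). *Ubl7* came first for *Tchh* (0.9951), *Wdr35* for *Tchhl1* (0.9949) and *Srp14* for *Crnn* (0.9943). Ranks 2 and 3 went to *Tmem94* and *Tmem181c-ps* for *Flg*, *Fam72a* and *Gm15489* for *Flg2*, *Kpna4* and *Mir23a* for *Hrnr*, *Gm49747* and *Sh3rf2* for *Rptn*, *Gm33103* and *Tmc7* for *Tchh*, *Sh3gl2* and *Emp2* for *Tchhl1*, and *Gm26608* and *Cdc34* for *Crnn*. Each was picked as the highest of nearly all tested genes, so the size of r carries no test. Of these 24 genes only *Emp2*, an epithelial membrane protein, passed the edgeR threshold, with a log2 fold change of 0.58 (adjusted p = 0.0166).

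Filaggrin-type proteins are made ready by proteases, their inhibitors and peptidylarginine deiminases. Of 14 tested genes of this list, 2 were higher in iASPP KO and none lower, with a median log2 fold change of 0.38. *Prss8*, a membrane-bound protease that acts on profilaggrin, rose by 0.79 (SE 0.14, edgeR adjusted p = 0.0147), and *Spink5*, an inhibitor of kallikreins, rose by 0.69 (SE 0.14, edgeR adjusted p = 0.0227). Leaving out batches 1, 2 and 3 in turn gave 0, 2 and 4 higher genes, so both calls were lost without batch 1. Of 12 tested genes for cross-linking and scaffold of the envelope, 5 were higher and none lower, with a median of 0.55. They were *Tgm3* at 1.45 (SE 0.34, edgeR adjusted p = 0.0428), *Cdsn* at 1.03, *Sbsn* at 0.67, *Tgm1* at 0.58 and *Ppl* at 0.52. This count was 1 without batch 1, 2 without batch 2, 9 without batch 3 and 3 with robust dispersion. Without batch 3, 5.20% of all tested genes were higher, against 2.17% over all batches.

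*Tgm3*, the transglutaminase that joins trichohyalin, had 165, 143 and 60.0 CPM in iASPP KO and 85.2, 88.1 and 7.75 CPM in iASPP WT. As in *Tchh*, iASPP WT of batch 3 was the lowest by far, but *Tgm3* was higher in iASPP KO in all batches (0.96, 0.70 and 2.94). It is also counted among 12 genes of the inner root sheath and medulla, of which 5 were tested and *Tgm3* alone was higher. That call was lost with DESeq2 and with robust dispersion, where no gene of this list passed. The keratins that define the inner root sheath, *Krt25*, *Krt27*, *Krt28* and *Krt71* to *Krt74*, had 0 to 1.20 CPM in single libraries. These 7 keratins summed to 0.469 to 1.65 CPM per library, and 20 of their 42 values were 0.

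Of the suprabasal keratins 7 were tested. *Krt10*, which filaggrin bundles with its partner *Krt1*, fell by 1.31 on the log2 scale (SE 0.29, edgeR adjusted p = 0.033) and *Krt77* fell by 1.33 (SE 0.32, edgeR adjusted p = 0.0466), while *Krt78* rose by 0.63 (SE 0.12, edgeR adjusted p = 0.0198). All 3 calls were lost without batch 1 and again without batch 2, and DESeq2 and robust dispersion each left 1 keratin lower. *Krt10* had 33.2, 21.8 and 9.09 CPM in iASPP KO and 134, 65.6 and 10.1 CPM in iASPP WT. Its fall was within batches 1 and 2 (−2.01 and −1.58) and was small in batch 3 (−0.15), where *Flg* fell most. For 1 count of *Krt10* there were 1.94, 3.25 and 1.46 of *Flg* in iASPP KO and 0.721, 1.51 and 4.23 in iASPP WT. Of 17 tested transcription factors of late differentiation, *Hopx* (1.12, SE 0.13, edgeR adjusted p = 0.00192) and *Cebpb* (0.54) were higher, with a median of 0.19. The higher factors numbered 1 without batch 1, 1 without batch 2 and 8 without batch 3, a fit that also called more of all genes.

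The other families of the complex gave different counts. Of 13 tested *Sprr* genes, which encode small proline-rich envelope proteins, 7 were higher and none lower, with a median log2 fold change of 1.08. *Sprr2e* had 1.91, *Sprr2h* 1.71, *Sprr2d* 1.58 and *Sprr2g* 1.57. Members of this family are close copies of each other, and reads on shared stretches were not counted. Of 12 tested *S100* genes, which encode proteins of the S100 domain alone, 3 were higher, with a median of 0.14. These were *S100a8* (1.98), *S100a7a* (1.95) and *S100a9* (1.93). Of 20 tested *Lce* genes, the late cornified envelope proteins, none passed the edgeR threshold in either direction, with a median of −0.13. At an unadjusted edgeR p under 0.05, 4 *Lce* genes were higher and 2 lower, and DESeq2 called 1 higher. By edgeR without batch 3, 7 were higher, beside 5.20% of all genes tested then. The lowest p values were those of *Lce3c* (1.03, edgeR adjusted p = 0.147) and *Lce1e* (0.81, edgeR adjusted p = 0.168). The 8 loricrin and S100-fused genes moved both ways over all batches, with 2 lower and 1 higher, beside 1.95% and 2.17% of all tested genes.

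**Figure D4:**
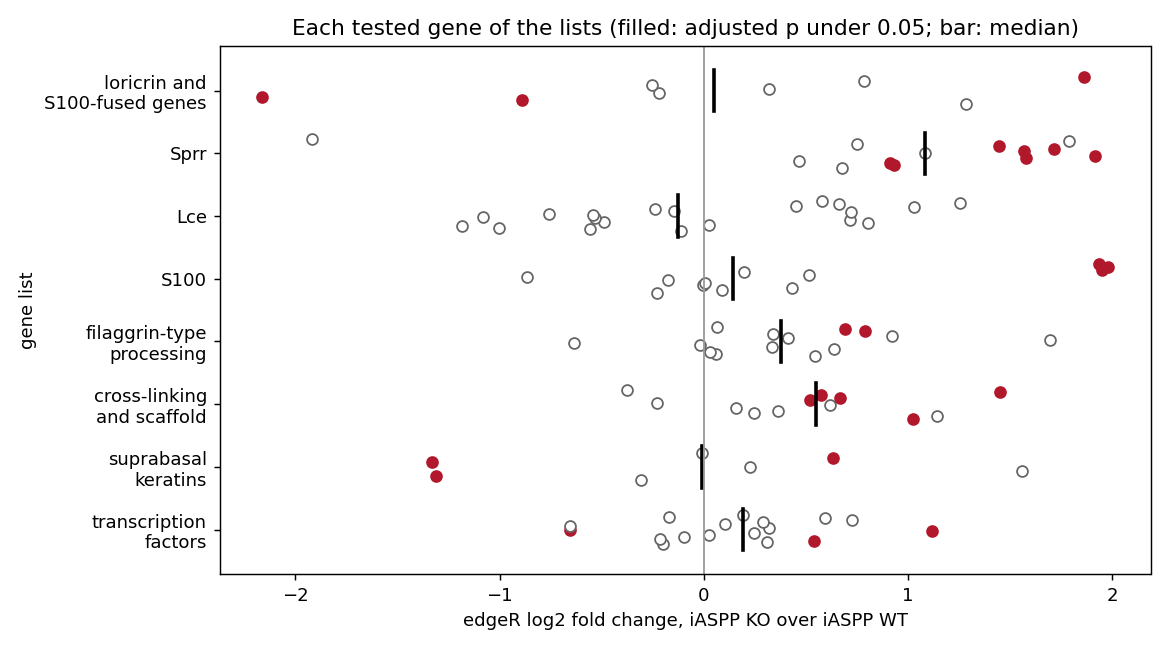
EdgeR log2 fold change of iASPP KO over iASPP WT (horizontal axis) of each tested gene in 8 lists (rows), filled where the adjusted p was under 0.05, with a bar at the median of the list. The loricrin and S100-fused genes run from −2.16 to 1.86 around a median of 0.05, while the median of the *Sprr* genes is 1.08.

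Markers of other cells the cultures could hold were counted in the same fit. None of 10 basal keratinocyte markers passed in edgeR (1 higher and 1 lower at an unadjusted p under 0.05, and 1 lower by DESeq2). Without batch 3, 3 were lower, beside 4.34% of all genes tested then. *Lamb3* (−0.40, adjusted p = 0.11) and *Krt15* (1.09, adjusted p = 0.145) had the lowest p values in edgeR. Of 8 fibroblast markers, *Col3a1* (−0.87, edgeR adjusted p = 0.0269) and *Col1a2* (−0.55, edgeR adjusted p = 0.0428) were lower in iASPP KO, and the lower calls numbered 1 without batch 1, 0 without batch 2 and 0 without batch 3. The summed leukocyte markers were 64.9 to 82.0 CPM in iASPP KO and 43.5 to 64.8 CPM in iASPP WT. This sum mixed unlike genes. In both conditions *Csf1r* and *Cd68* were lowest in batch 3, and *Lyz2* was highest there. Of the 5 tested, *Csf1r* alone was higher (1.11, edgeR adjusted p = 0.0206), a call lost without batch 1 and without batch 2. Melanocyte markers summed to 430.8 to 1065 CPM and 367.5 to 1126 CPM, and endothelial markers to 3.06 to 13.02 CPM and 3.94 to 7.22 CPM. None of 7 melanocyte and 3 endothelial markers tested passed by edgeR or DESeq2 over all batches, and 0 had an unadjusted p under 0.05 in edgeR, while 1 endothelial marker was higher in edgeR without batch 3. The lowest p values there were those of *Pmel* (−0.15, edgeR adjusted p = 0.588), *Tyr* (−0.20, 0.605), *Tek* (−1.28, 0.463) and *Kdr* (0.87, 0.619). Whether any of these cells had a part in the levels of the 8 genes was not tested.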

How the data were processed

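The authors trimmed the reads with Cutadapt 2.10, aligned them to GRCm38 with STAR 2.7.3 and deposited a table of the count of uniquely aligned reads per gene name from featureCounts 2.0.0 (GENCODE vM25, exons, reverse strand), without normalization. Their second table holds fold changes and p-values of their own DESeq2 comparison and was not used. The 8 genes and the 13 other gene lists were chosen with earlier results of these data known.

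The quasi-likelihood test of edgeR 4.0.16 (R 4.3.3) was run on the counts after filterByExpr and TMM scaling, with glmQLFit, glmQLFTest, terms for batch and condition, and Benjamini-Hochberg adjustment over all 14916 tested genes. The SE is the log2 fold change divided by the square root of F, CPM uses TMM-scaled totals, and within-batch values subtract log2 CPM, computed with 2 as prior count. Batch is the block because each batch was divided into both conditions, and same-batch deviations correlated at 0.60, 0.71 and 0.77. Replicates of a condition differed by a chi-square per gene of 35.4 to 147, so none was a copy. On simulated counts with 200 genes changed by a log2 fold of 1.5, the fit recovered 68.5%, with 0% false calls, among 14030 genes. Without the batch term it recovered 11%. The simulated spread followed the fitted trend and each change was the same in every batch. Genes whose change differs between batches, such as *Tchh* and *Rptn* here, were thus not covered.

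Named were the 8 genes, *Ppp1r13l*, of each list the genes past the threshold (at most 4 by size, or the 2 with the lowest p where none passed), and the 3 genes most correlated with each of the 8. *Ppl*, and the count ratios between genes, were added after their values were seen. A gene of the transcription factor list that the rule would name is not reported here. Windows came from the GENCODE vM21 transcripts and promoters from RefSeq, both on the same build. Alternatives were no batch term, DESeq2 1.42.0, its size factors, upper-quartile scaling, no filter beyond 1 count, at least 10 counts in every library, robust dispersion and each batch left out. Applying them to the other lists, and searching TATAAA, were chosen after seeing the data. Figures were drawn with matplotlib 3.10.9 in Python 3.11.15.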

Additional observations from a re-analysis of the deposited data

How the results depend on the processing

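The calls of *Flg2* and *Tchhl1* held under every alternative that kept the batch term, and that of *Flg* under all but edgeR's robust dispersion. There the log2 fold change of *Flg*, −0.89, had an adjusted p of 0.0658. With robust dispersion 1 of the 8 genes was lower, beside 359 of all 14916 tested genes. Without the replicate block (batch as a paired term), edgeR called 0 genes in either direction, of the 8 or of all, with 360 higher and 331 lower at an unadjusted p under 0.05. The values of *Flg*, *Flg2* and *Tchhl1* were then −0.68, −2.01 and 1.85. Without a low-count filter 624 of 31932 tested genes were higher and 491 lower, and 2 of the 8 were higher, *Tchh* (0.79) among them. Leaving out 1 batch gave 1 to 2 of the 8 higher. Of all 15236 to 15437 genes tested then, 169 to 793 were higher and 117 to 662 lower, the most without batch 3. Over these fits, *Lor* ran from 0.17 to 0.52, *Hrnr* from −0.49 to 0.28, *Rptn* from −0.69 to 0.36 and *Tchh* from −0.0086 to 1.39. *Hrnr*, *Rptn* and *Tchh* changed sign and *Lor* passed without batch 3. Per kb of windows that occur once, *Flg* was at 6.93 in iASPP KO and 11.1 in iASPP WT, *Flg2* at 0.519 and 2.10, and *Hrnr* at 2.22 and 2.37. The cause of these changes was not tested. Depth limits *Crnn* most, with 23 to 95 counts per library.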
